A study of Mus musculus with 2 samples.

Results

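The genes described here are 4 bone morphogenetic protein (BMP) ligands (Bmp2, Bmp4, Bmp5 and Bmp7) and 5 secreted proteins that restrain or modulate BMP or activin signalling (Nog, Grem1, Fst, Chrdl1 and Bmper). They were taken by symbol from the 32285 genes of the deposited gene table, where each of the 9 occurs once. They were followed by cell class in single-cell RNA sequencing of whole uterus from female C57BL/6J mice aged 6 months. The data were 2 libraries: 1 is labelled control (Prickle1 f/f, the floxed allele, which both groups carry) and 1 is labelled cKO (Prickle1 f/f MiC, where the labels do not spell out MiC or name the promoter or cell type that drives it). Uteri of 3 mice were pooled into each library, so no value has a replicate error and no test between groups was possible. Intervals given in brackets are at 95% and reflect counting error alone, not the spread between mice. The genotype field of the labels reads wild-type for both libraries.

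BMPs are secreted ligands of the TGF-beta superfamily that bind type I and type II serine/threonine kinase receptors and act through Smad1, Smad5 and Smad9 on targets such as the Id genes. Noggin (Nog), gremlin 1 (Grem1) and chordin-like 1 (Chrdl1) bind BMP ligands outside the cell and keep them from their receptors. Follistatin (Fst) binds activins with high affinity and BMPs more weakly, and Bmper is a chordin-related protein that modulates BMP activity. In the uterus Bmp2 is known for its role in the decidual response of the stroma, and Bmp7 is also known as a uterine BMP.

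On GRCm38, the assembly that mm10 names and that the submitters' processing notes give, GENCODE vM21 places the ligand genes at chr2:133552159-133562885 (Bmp2), chr14:46383520-46390669 (Bmp4), chr9:75775364-75900310 (Bmp5) and chr2:172868012-172940321 (Bmp7). The antagonist genes lie at chr11:89300638-89302332 (Nog), chr2:113746164-113758646 (Grem1), chr13:114452290-114458951 (Fst), chrX:143285674-143394262 (Chrdl1) and chr9:23223076-23485200 (Bmper). RefSeq promoter sequences of 300 bases (250 before to 50 after the start) were matched for 4 of the 9 genes. Those of Bmp4 and Bmper are shown because these genes had opposite class patterns below, with Bmp4 highest in smooth muscle-like and mesothelium-like cells and Bmper in fibroblast-like cells. Each is written from 5′ to 3′ on the gene's own strand (minus for Bmp4, plus for Bmper), with CG dinucleotides in capitals.
Bmp4, chr14:46390620-46390919: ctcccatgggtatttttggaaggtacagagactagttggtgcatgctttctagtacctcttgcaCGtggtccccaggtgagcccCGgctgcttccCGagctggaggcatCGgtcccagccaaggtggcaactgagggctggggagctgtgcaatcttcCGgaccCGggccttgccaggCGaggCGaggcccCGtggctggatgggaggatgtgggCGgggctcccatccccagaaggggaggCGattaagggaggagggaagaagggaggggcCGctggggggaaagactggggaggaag
Bmper, chr9:23222826-23223125: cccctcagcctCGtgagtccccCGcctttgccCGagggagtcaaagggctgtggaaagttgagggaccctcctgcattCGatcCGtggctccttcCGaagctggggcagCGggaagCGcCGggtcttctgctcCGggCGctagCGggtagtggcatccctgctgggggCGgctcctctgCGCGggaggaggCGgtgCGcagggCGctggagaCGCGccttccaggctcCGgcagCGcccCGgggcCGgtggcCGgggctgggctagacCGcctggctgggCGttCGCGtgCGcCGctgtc
The Bmp4 window had 64.0% G and C and 12 CG dinucleotides, and the Bmper window 72.7% and 31, against medians of 52.7% and 7 over the 32851 promoters of the table. The GC-rich Smad motif GGCGCC and the CArG box, the motif of serum response factor, were searched. Both read alike on either strand. Of the 4 matched promoters only that of Grem1 held GGCGCC, in 1 place, and none held a CArG box. They occurred in 11.9% and 1.63% of all promoters.

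The control-labelled library held 45035801 UMIs (unique molecular identifiers, each standing for 1 captured transcript) and the other 34261441. Filtering left 3490 cells with a median of 4953 UMIs and 3586 cells with a median of 4903, and 6 barcodes occurred among the cells of both. Prickle1 was not lower in the cKO-labelled library: in smooth muscle-like cells it had 14 UMIs (14.9 CPM, UMI counts scaled to the total of the class) in the control-labelled library and 51 UMIs (24.4 CPM) in the other. The labels do not say which exons are floxed, so the 3-prime tags may lie outside the deleted part and then check nothing. Every direction below therefore rests on the labels alone. Epithelium-like cells made up 37.6% of cells in the control-labelled library and 3.04% in the other, so values are given within classes. Fibroblast-like cells numbered 867 and 1366 and smooth muscle-like cells 311 and 680.

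**Figure D1:**
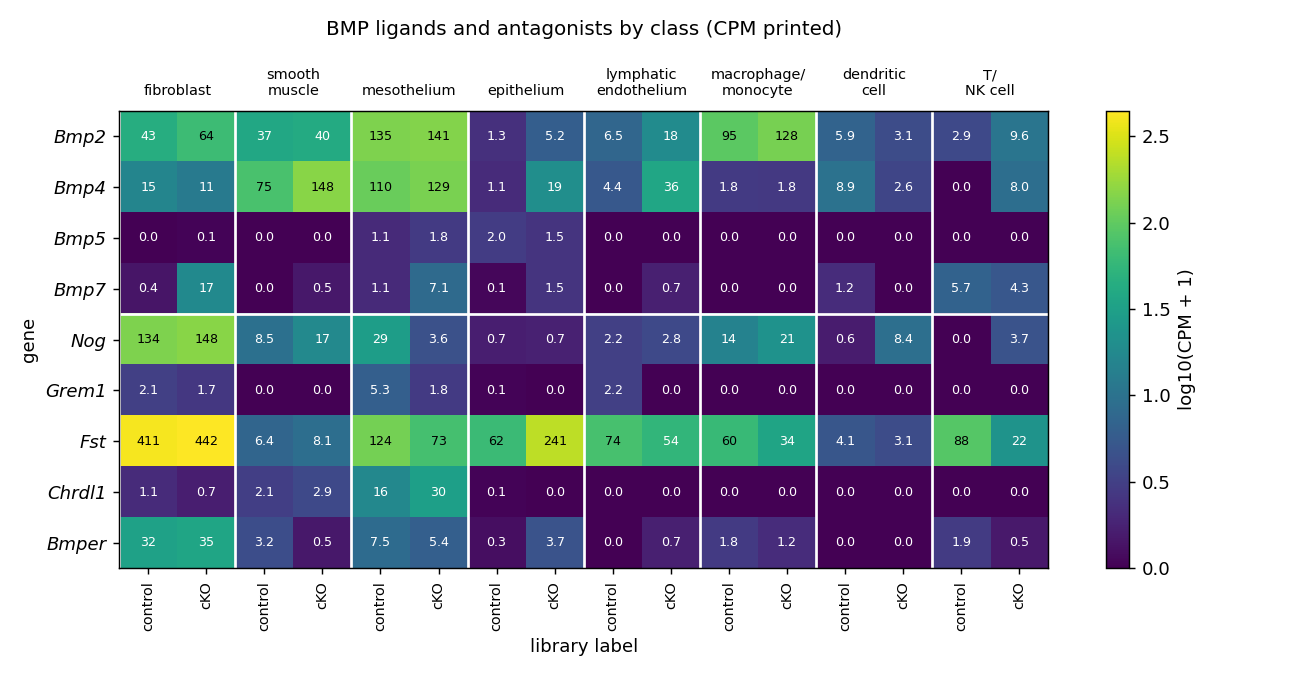
Levels of the 9 genes (rows, ligands above the white line) in 8 cell classes of each library (columns), as CPM printed in each field and as log10(CPM + 1) in colour. Nog and Bmper were highest in fibroblast-like cells, Bmp4 in smooth muscle-like and mesothelium-like cells, and Bmp2 in mesothelium-like and macrophage or monocyte-like cells.

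Bmp2 was detected in several classes. It stood at 135 CPM (112 to 160) in mesothelium-like cells of the control-labelled library and at 141 CPM (112 to 176) in those of the cKO-labelled library, although these were only 82 and 31 cells, of which 3 in each library held 42 of 126 and 43 of 79 UMIs. The summed level of the 6 fibroblast markers in this class was 9859 and 12739 CPM, close to the 12604 and 11128 CPM of the fibroblast-like cells, while that of the 5 mesothelium markers was 1186 and 1547 CPM. Macrophage or monocyte-like cells followed at 94.7 CPM (83.5 to 107) and 128 CPM (111 to 146), and fibroblast-like cells at 43.1 CPM (39.1 to 47.4) and 64.1 CPM (60.3 to 68.1). The mesothelial and macrophage intervals overlapped in the cKO-labelled library, and in both libraries fibroblast-like cells lay below both. Smooth muscle-like cells, at 37.2 CPM (25.9 to 51.8) and 40.1 CPM (32.0 to 49.7), overlapped with fibroblast-like cells in the control-labelled library and lay below them in the other.

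The macrophage signal came from few cells. In the control-labelled library 38 of 315 macrophage or monocyte-like cells held all 260 Bmp2 UMIs, and 1 cell held 112 of them. In the cKO-labelled library 41 of 228 cells held 216, with 63 in 1 cell. The median summed level of the 6 fibroblast markers was 0 in the Bmp2-positive cells of both libraries, as it was in the negative ones. In the 3 cells with most Bmp2 UMIs, which held 157 of the 260 and 104 of the 216, the fibroblast marker level lay between 0 and 195 CPM in the control-labelled library and between 0 and 166 CPM in the other. Without these cells Bmp2 stood at 38.0 and 67.3 CPM in the class.

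Within fibroblast-like cells Bmp2 was higher in the cKO-labelled library, by 1.49-fold (1.33 to 1.67), and its log2 ratio on the scale of CPM + 5 was 0.52, where the median of all genes was 0.10. The direction was the same in all 5 fibroblast-like clusters with at least 20 cells in each library. Of these, cluster 6 held only 2 and 3 Bmp2 UMIs, too few to give a direction. In cluster 17, a shallow cluster led by Hsd11b2 and Col6a4, Bmp2 reached 203 CPM (145 to 278) and 298 CPM (254 to 347), the highest level among clusters 5, 6, 7, 8, 17 and 18 in both libraries. In cluster 7, led by Dpt and Igfbp3, it stood at 73.3 CPM (64.1 to 83.3) and 100.4 CPM (88.7 to 113). In cluster 5, led by Ptx3 and Mmp3, it stood at 25.6 CPM (21.4 to 30.4) and 47.3 CPM (42.4 to 52.7). The order of these clusters was thus the same in both libraries. The share of fibroblast-like cells with a Bmp2 UMI was 18.6% and 26.4%, and 3.81% and 7.03% after thinning every cell to 1000 UMIs.

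Bmp4 reached its highest levels in smooth muscle-like and mesothelium-like cells, while fibroblast-like cells held 40.4% and 27.8% of its UMIs. Mesothelium-like cells held 103 UMIs (110 CPM, 89.8 to 133) in the control-labelled library and 72 UMIs (129 CPM, 101 to 162) in the cKO-labelled library, with 35 and 39 of them in 3 cells. Fibroblast-like cells held 147 UMIs (14.97 CPM) and 185 UMIs (11.2 CPM), with a ratio of 0.75 (0.60 to 0.93) that became 0.88 (0.70 to 1.11) without cluster 8, which was drawn over 90% from the cKO-labelled library. Most fibroblast Bmp4 lay in cluster 7, with 61.2% and 53.0% of the class's Bmp4 UMIs. There the direction was the opposite of that of the class, at 28.3 CPM (22.8 to 34.8) and 36.6 CPM (29.7 to 44.6), with a ratio of 1.29 whose interval of 0.96 to 1.74 included 1. Of the 5 clusters with at least 20 cells in each library, this was the 1 with more Bmp4 in the cKO-labelled library. A fall across the other 4 was not shown. Clusters 6 (1 and 0 UMIs) and 18 (2 and 5 UMIs) held too few to give a direction. Cluster 5 was nearly equal, with 29 of 5069418 UMIs and 40 of 7059594. Cluster 17 differed most between the libraries, at 130 CPM (84.3 to 192; 25 UMIs in 41 cells) in the control-labelled library and 34.7 CPM (20.9 to 54.2; 19 UMIs in 90 cells) in the cKO-labelled library. Macrophage or monocyte-like cells, which served as a background class, had a Bmp4 UMI in 1.59% and 0.877% of cells at median depths of 7733 and 5795.5 UMIs, against 8.88% and 7.32% of fibroblast-like cells at 9535 and 10163. Empty droplets held Bmp4 at 7.37 and 17.4 CPM, the latter above the fibroblast-like level of that library.

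In smooth muscle-like cells Bmp4 had 71 UMIs (75.5 CPM, 59.0 to 95.2) in the control-labelled library and 310 UMIs (148 CPM, 132 to 165) in the cKO-labelled library. The ratio was 1.96 (1.51 to 2.57), a log2 ratio of 0.93 where the median of all genes was 0.21. The clusters did not share this direction. Cluster 12, led by Flrt1 and Gata6, held 55 UMIs (122 CPM, 91.8 to 159) and 288 UMIs (247 CPM, 219 to 277), with a ratio of 2.03 (1.52 to 2.76). Cluster 11, led by the contractile genes Actg2 and Tagln, held 14 UMIs (35.6 CPM, 19.5 to 59.7) and 5 UMIs (9.20 CPM, 2.99 to 21.5), with a ratio of 0.26 (0.07 to 0.76). Cluster 11 was shallow, with median depths of 1507 and 1344 UMIs against 4972 and 3908.5 in cluster 12, and it made up 213 of 311 smooth muscle-like cells in the control-labelled library and 340 of 680 in the other. The mean of the log2 ratios of these 2 clusters was -0.26, opposite in sign to the class value, and with every cell thinned to 1000 UMIs the class log2 ratio was 0.28. The summed level of the 7 smooth muscle markers was 10816 and 6527 CPM in the class, that of the 6 fibroblast markers 1056 and 668 CPM and that of the 5 mesothelium markers 246 and 332 CPM, with Msln, Lrrn4 and Upk1b at 0 UMIs in both libraries. The part that depth, these other transcripts and the mix of clusters played in the class value was not tested.

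**Figure D2:**
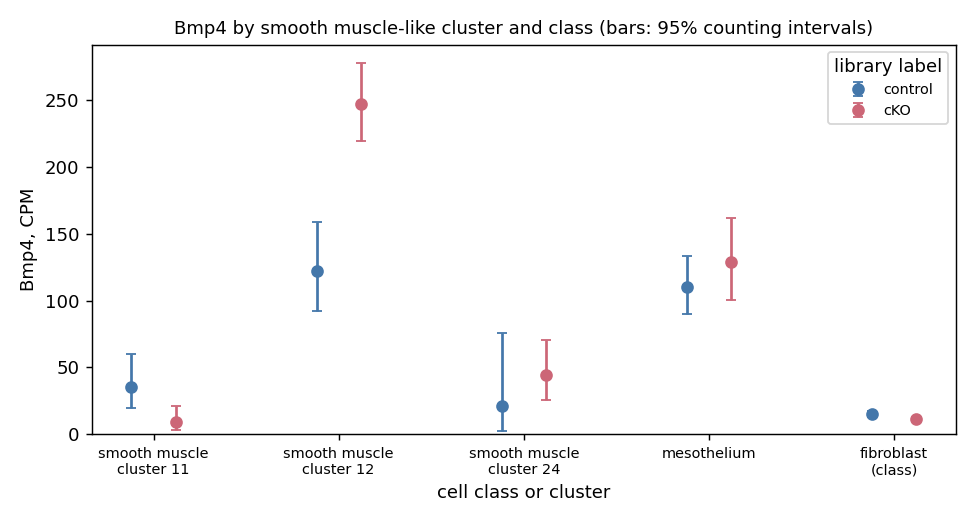
Bmp4 in CPM (vertical axis) in the smooth muscle-like clusters 11, 12 and 24, in mesothelium-like cells and in fibroblast-like cells of each library, with points for the levels and bars for their 95% counting intervals. The level was higher in the cKO-labelled library in cluster 12 (122 and 247 CPM) and lower there in cluster 11 (35.6 and 9.20 CPM).

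Bmp7 was found mainly in fibroblast-like cells of the cKO-labelled library, which held 93.1% of its UMIs there. It had 4 UMIs (0.407 CPM, 0.111 to 1.04) in the 867 fibroblast-like cells of the control-labelled library and 282 UMIs (17.02 CPM, 15.1 to 19.1) in the 1366 of the cKO-labelled library, in 4 and 106 cells. The ratio was 41.8 (16.1 to 154) and the log2 ratio on the scale of CPM + 5 was 2.03. Cluster 8, led by Dio2, Aldh1a2 and A2m, held 220 of the 282 UMIs, and cluster 17 held 57.

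Cluster 8 had 15 cells in the control-labelled library and 228 in the other, so most of the Bmp7 difference followed a cluster that 1 library almost lacked. Its levels were 3.99 CPM (1 UMI) and 47.7 CPM (41.6 to 54.5). Cluster 17 had cells from both libraries, but these were not alike. There Bmp7 had 0 UMIs in the 41 cells of the control-labelled library and 57 UMIs (104 CPM, 78.9 to 135) in 25 of the 90 cells of the cKO-labelled library, which is at least 6.66-fold higher against a floor of 3 counts in the control-labelled library. A2m, which helped to define cluster 8, moved with it inside cluster 17, with 0 UMIs and 193 UMIs (353 CPM). At the finer Leiden resolution of 2.0 cluster 17 fell into a cluster with 3 cells of the control-labelled library and 43 of the other, which held 55 of the 57 Bmp7 UMIs and all 193 A2m UMIs, and cells of another cluster, 38 and 47, with 0 and 2 Bmp7 UMIs. The Bmp7 difference thus lay almost wholly in cells that the control-labelled library nearly lacked, and differences of other genes within cluster 17 carry the same limit. Without cluster 8 the Bmp7 counts were 3 and 62, with a ratio of 16.5 (5.40 to 82.4), and the log2 ratio was 0.94, below the 2-fold limit on that scale.

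Outside fibroblast-like cells Bmp7 was sparse, as it was in every class of the control-labelled library. Of the 17 Bmp7 UMIs in cells of that library, T or NK cell-like cells held 35.3% and fibroblast-like cells 23.5%. T or NK cell-like cells had 6 and 8 UMIs, mesothelium-like cells 1 and 4, smooth muscle-like cells 0 and 1, and macrophage or monocyte-like cells 0 in both, which allows up to 1.09 and 1.77 CPM at a floor of 3 counts. Empty droplets held 2 Bmp7 UMIs (0.776 CPM) and 11 (6.00 CPM).

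Bmp5 was found at a low level, and mainly in epithelium-like cells. Of its 38 UMIs in cells of the control-labelled library 37 lay in epithelium-like cells (1.96 CPM, 1.38 to 2.70), in 28 of 1311 cells. The cKO-labelled library held 4 Bmp5 UMIs in all, 2 of them in its 109 epithelium-like cells (1.48 CPM, 0.180 to 5.36). The ratio of 0.76 had an interval of 0.09 to 2.94, so no difference within the epithelium was detectable at this depth. Over all cells Bmp5 was lower in the cKO-labelled library, at 0.136 against 1.01 CPM, beside the lower share of epithelium-like cells there.

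Among the antagonists, Nog lay largely in 1 class, with 93.6% and 96.0% of its UMIs in fibroblast-like cells. It stood there at 134 CPM (127 to 142; 1320 UMIs) in the control-labelled library and 148 CPM (142 to 154; 2449 UMIs) in the cKO-labelled library, with a ratio of 1.10 (1.03 to 1.18). Its log2 ratio was 0.13, beside a median of 0.10 for all genes. The share of fibroblast-like cells with a Nog UMI was 34.1% and 35.5%. In smooth muscle-like cells Nog stood at 8.51 and 16.7 CPM, below the 16.3 and 37.1 CPM of the empty droplets. Macrophage or monocyte-like cells showed 13.8 and 21.2 CPM, but 3 cells held 89.5% of those UMIs in the control-labelled library and 83.3% in the other. The median summed fibroblast marker level of their Nog-positive cells was 1909 and 4262 CPM, against 0 in the Nog-negative cells.

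Nog levels spread widely among the fibroblast-like clusters. Cluster 5 held 69.0% and 77.6% of fibroblast Nog UMIs and stood at 180 CPM (168 to 192) and 269 CPM (257 to 282), with a ratio of 1.50 (1.38 to 1.62). The shallow cluster 6 reached 237 CPM (198 to 281) and 359 CPM (263 to 479). Cluster 8 was at 7.98 CPM (0.966 to 28.8) and 26.7 CPM (22.2 to 31.8). Without cluster 8 the Nog ratio of the class was 1.41 (1.32 to 1.51) in place of 1.10. Of the 5 clusters with enough cells in both libraries, 4 had more Nog in the cKO-labelled library and cluster 17 less, at 115 and 64.0 CPM.

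Fst had the most UMIs of the 9 genes, with 5628 and 7907 in cells. Fibroblast-like cells stood at 411 CPM (398 to 424) and 442 CPM (432 to 452), with a ratio of 1.08 (1.04 to 1.12), and 1.39 (1.33 to 1.44) without cluster 8. Within cluster 8 the Fst level was lower in the cKO-labelled library. It held 145 of 250716 UMIs in 15 cells of the control-labelled library and 597 of 4611347 in 228 cells of the other. The class log2 ratio was 0.11, beside a median of 0.10 for all genes. Cluster 18, led by Cxcl5, Has2 and Mfap5, held Fst in 88.5% and 88.6% of its cells, at 603 CPM (539 to 672) and 1371 CPM (1311 to 1433), with a ratio of 2.27 (2.02 to 2.57). In cluster 7 the direction was the opposite, at 277 and 225 CPM with a ratio of 0.81 (0.73 to 0.90). Over the 5 clusters with enough cells, Fst was higher in 3 and lower in 2.

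Bmper was likewise a gene of the fibroblast-like cells. Fibroblast-like cells held 93.1% and 97.3% of its UMIs, at 31.8 CPM (28.3 to 35.5) and 35.0 CPM (32.2 to 38.0), and the interval of the ratio (0.96 to 1.27) included 1. Without cluster 8, where Bmper was at 7.98 and 3.04 CPM, the ratio was 1.46 (1.27 to 1.68). Bmper was higher in the cKO-labelled library in cluster 5 (34.7 and 47.7 CPM), cluster 7 (33.01 and 43.7 CPM) and cluster 18 (42.5 and 72.0 CPM). Each of these 3 ratios had an interval above 1.

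Grem1 and Chrdl1 were rare. Grem1 had 28 and 29 UMIs in all cells, of which fibroblast-like cells held 21 (2.14 CPM, 1.32 to 3.27) and 28 (1.69 CPM, 1.12 to 2.44). No Grem1 UMI was found in smooth muscle-like cells of either library, which allows up to 3.19 and 1.43 CPM. Chrdl1 had 29 and 34 UMIs, of which mesothelium-like cells held 15 (16.01 CPM, 8.96 to 26.4) and 17 (30.4 CPM, 17.7 to 48.6). Fibroblast-like cells held 11 Chrdl1 UMIs in each library (1.12 and 0.664 CPM), below the mesothelial intervals.

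**Figure D3:**
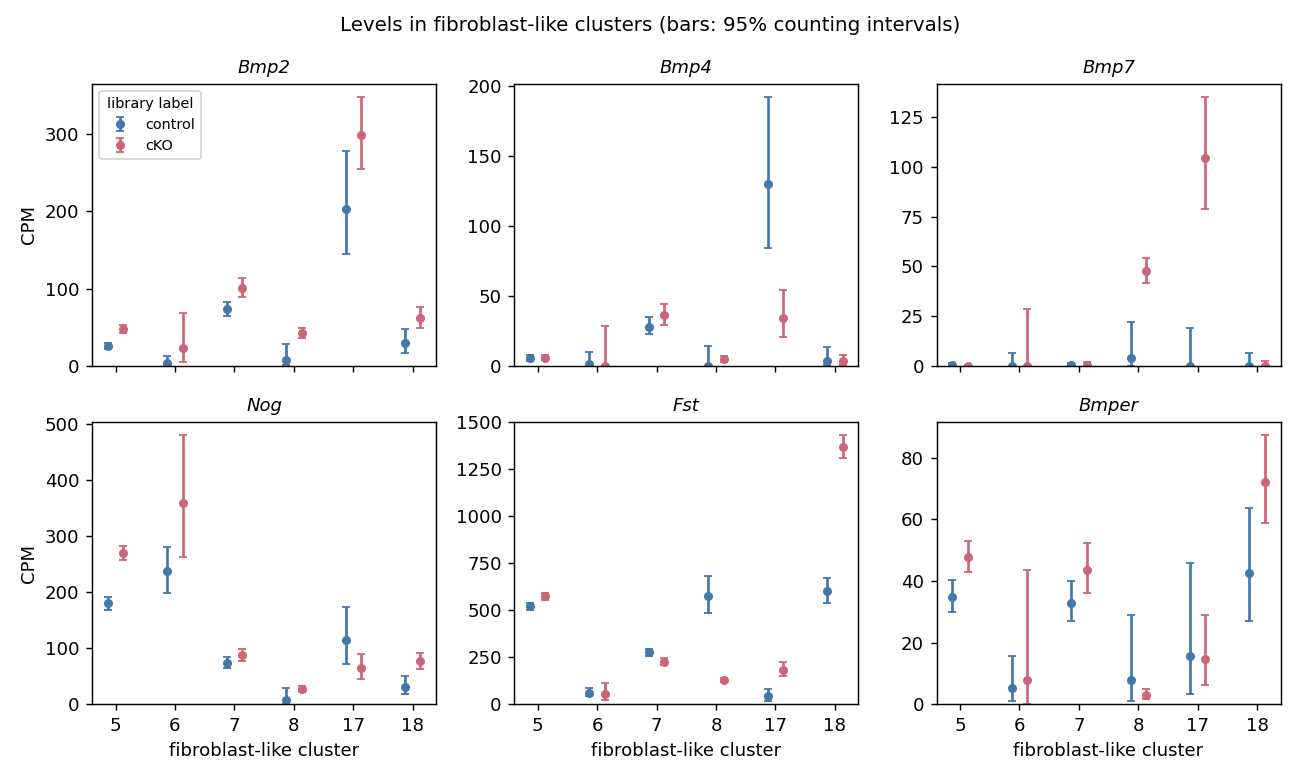
Levels in CPM (vertical axes, each from 0) of 6 genes in fibroblast-like clusters 5, 6, 7, 8, 17 and 18 (horizontal axes), by library, with bars for 95% counting intervals. Bmp7 appeared in clusters 8 (47.7 CPM) and 17 (104 CPM) of the cKO-labelled library, Nog was highest in clusters 5 and 6, and Fst reached 1371 CPM in cluster 18 of the cKO-labelled library.

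Taking the class as a whole, 6 of the 9 genes had at least 10 CPM in fibroblast-like cells of 1 library. Their median log2 ratio was 0.13, beside 0.10 for all genes. Of the 6, 5 were higher and 1 (Bmp4) lower in the cKO-labelled library, where 65.2% of all genes were higher. Bmp7 alone was past 2-fold (an absolute log2 ratio of at least 1 on the scale of CPM + 5), where 2.56% of 8158 genes were. Bmp7 passed the level filter only through the library in which it was high. Such a filter favours genes that differ, so its count is not read as a result about the set. In smooth muscle-like cells 3 of the 9 genes (Bmp2, Bmp4 and Nog) had 10 CPM and none was past 2-fold, where 5.76% of 8712 genes were. Nog passed the level filter only through the cKO-labelled library, with 8 and 35 UMIs, with a ratio of 1.96 whose interval of 0.90 to 4.90 included 1.

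In epithelium-like cells 2 of the 9 genes had 10 CPM, Bmp4 and Fst. Both were past 2-fold, where 20.8% of 8678 genes were, so that many genes of this class differed between the libraries. Fst stood at 62.1 CPM (58.6 to 65.7) in the control-labelled library and 241 CPM (216 to 269) in the cKO-labelled library, with a ratio of 3.89 (3.43 to 4.40). In the latter 3 cells held 225 of the 325 UMIs. Most epithelium-like cells of the control-labelled library lay in clusters 0, 3 and 9, which were drawn over 90% from it, and most of the 109 cells of the cKO-labelled library lay in cluster 1. Within cluster 1 Fst stood at 137 CPM (128 to 148) and 263 CPM (235 to 294), with a ratio of 1.92 (1.67 to 2.19). The same 3 cells held 225 of the 307 UMIs of cluster 1 in the cKO-labelled library, and 3 cells held 313 of 742 in the other. Without them Fst stood at 82.2 and 115 CPM there. Bmp4 had 21 UMIs (1.11 CPM) and 26 UMIs (19.3 CPM), so it too passed the level filter only where it was high. In the cKO-labelled library 3 cells held 20 of the 26 UMIs, and the median depth of the Bmp4-positive cells was 27644 UMIs against 3961.5 in the negative ones. With every cell thinned to 1000 UMIs the Bmp4 log2 ratio was -0.20 in place of 1.99.

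In immune classes few of the genes reached 10 CPM. Fst alone did so in T or NK cell-like cells, at 87.7 and 21.9 CPM. It was past 2-fold, where 5.51% of genes were, but all 92 UMIs of the control-labelled library came from 3 cells. The median summed fibroblast marker level of the Fst-positive cells was 5767 and 6381 CPM, against 0 in the others. Bmp4 had 0 UMIs in T or NK cell-like cells of the control-labelled library and 15 (8.001 CPM) in the other, below the 17.4 CPM of the empty droplets there. Dendritic cell-like cells had none of the 9 genes at 10 CPM. In macrophage or monocyte-like cells Bmp2, Nog and Fst reached it and none was past 2-fold, where 3.87% of genes were.

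Likeness across cell groups was measured as Pearson's r of log2(CPM + 5) over 32 units of cluster and library with at least 50 cells. These units share libraries and cell types, so r is a description only. The genes most like Nog were Ngfr (0.93), Has1 (0.93) and Loxl1 (0.92), and those most like Bmper were Svep1 (0.96), Scn7a (0.93) and Slit3 (0.93). Bmp4 was most like Mcam (0.93), Itga7 (0.91) and Usp2 (0.90), and Bmp7 like Map2 (0.93), Gap43 (0.91) and Gm48898 (0.88). Bmp2 was most like Gga2 (0.85), Abca9 (0.85) and Hsp90aa1 (0.82), and Fst like Cpq (0.86), Fbln1 (0.86) and Flrt2 (0.83). Among the 9 genes themselves the highest values were those of Bmper with Fst (0.78) and with Nog (0.75), while Bmp4 stood at 0.15 with Nog and -0.02 with Fst. Bmp5, Grem1 and Chrdl1, with 42, 57 and 63 UMIs in all, were too sparse for this measure.

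Ligand and antagonist were also met in the same cells. Of the 77 fibroblast-like cells with a Bmp4 UMI in the control-labelled library, 27 (35.1%) also had a Nog UMI, and 42 of 100 did in the cKO-labelled library. Over all fibroblast-like cells 34.1% and 35.5% had a Nog UMI. Bmp4-positive cells of the control-labelled library were deeper than the negative ones, with medians of 12808 and 8894.5 UMIs, while in the other library the medians were 10168 and 10163. Of the Bmp2-positive cells, 27 of 161 (16.8%) and 36 of 360 (10.0%) had a Bmp4 UMI. Over all fibroblast-like cells 77 of 867 and 100 of 1366 did. Bmp2-positive cells were deeper than the negative ones, with medians of 14266 and 7511 UMIs in the control-labelled library and 11945 and 9587 in the other.

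The wider pathway was read from a list of 62 further genes, all found in the gene table. In fibroblast-like cells 39 had at least 10 CPM. Their median log2 ratio was 0.14, beside 0.10 for all genes, and none was past 2-fold. The highest ratios were those of the co-receptor Tgfbr3 (72.8 and 130 CPM, log2 ratio 0.79), the activin subunit Inhbb (654 and 1080 CPM, 0.72), the transcription factor Runx2 (7.33 and 15.1 CPM, 0.71) and the follistatin relative Fstl3 (24.8 and 39.6 CPM, 0.58). The lowest were those of Id2 (291 and 192 CPM, -0.59), the type I receptor Acvrl1 (13.7 and 7.84 CPM, -0.55), Atoh8 (39.7 and 26.1 CPM, -0.52) and Sox9 (48.6 and 33.01 CPM, -0.50). Runx2 and Acvrl1 passed the level filter only through 1 library. Of 5 clusters with at least 20 cells in each library, the direction was that of the class in 5 for Tgfbr3, 4 each for Inhbb, Fstl3 and Sox9, 3 each for Id2, Acvrl1 and Atoh8 and 2 for Runx2. The mean log2 ratio within clusters was -0.01 for Runx2 and 0.24 for Inhbb. Over all genes 65.2% were higher in the cKO-labelled library in this class, and 25 of the 39 (64.1%) were. Among receptors and co-receptors 11 of 13 had 10 CPM, with 7 higher and 4 lower in the cKO-labelled library, and among signal transducers 7 of 8, with 5 higher and 2 lower. Of 8 target genes with 10 CPM, 4 were higher and 4 lower.

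In smooth muscle-like cells 35 of the 62 genes had at least 10 CPM, with a median log2 ratio of 0.38 beside 0.21 for all genes. Of these 24 were higher and 11 lower in the cKO-labelled library, among them 7 and 3 of 10 receptors and 5 and 2 of 7 signal transducers. These shares were near that of all genes, of which 67.0% were higher. The targets Id1, Id2, Id3 and Id4, which encode inhibitors of basic helix-loop-helix factors, were all higher in the cKO-labelled library, with log2 ratios of 0.76, 0.60, 0.80 and 0.49. In the contractile cluster 11 their ratios were 3.53 (2.04 to 6.48), 2.99 (1.99 to 4.62), 3.23 (2.33 to 4.57) and 2.15 (1.51 to 3.13). In cluster 12 they were 1.34 (1.04 to 1.73), 1.09 (0.91 to 1.30), 0.97 (0.79 to 1.20) and 1.02 (0.83 to 1.27). In the class the summed erythroid markers stood at 49.98 and 975 CPM and the lymphatic endothelium markers at 37.2 and 91.2 CPM, so transcripts of other cells also differed. In cluster 11 these were 104 and 1779 CPM, and 10.2 and 20.2 CPM. In cluster 12 they were 11.1 and 920 CPM, and 57.6 and 120 CPM. The part of other cells in the Id values was not tested. The Id ratios were higher in cluster 11 than in cluster 12, and a link between them and Bmp4 was not tested.

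The 4 highest ratios in smooth muscle-like cells were those of Atoh8 (2 and 39 UMIs, with a ratio of 8.76 with an interval of 2.27 to 74.9), the co-receptor Rgma (48.9 and 110 CPM, log2 ratio 1.09), Inhbb (699 and 1387 CPM, 0.98) and Id3 (209 and 369 CPM). The lowest were those of Sox9 (10 UMIs and 1 UMI), Dand5 (13.8 and 9.07 CPM, -0.42), the activin receptor Acvr1b (13.8 and 10.0 CPM, -0.32) and the ubiquitin ligase Smurf2 (209 and 174 CPM, -0.26). Atoh8, Rgma and Sox9 were the 3 of 35 genes past 2-fold, where 5.76% of 8712 genes were. Of the 3, Atoh8 and Sox9 passed the level filter only through the library in which they were high. The intervals of the Dand5 and Acvr1b ratios, 0.31 to 1.45 and 0.35 to 1.58, included 1.

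The Id genes were also higher in epithelium-like cells of the cKO-labelled library. Id1 stood at 87.8 and 352 CPM, Id2 at 127 and 503 CPM, Id3 at 80.8 and 229 CPM and Id4 at 10.95 and 62.4 CPM, with ratios of 4.01, 3.97, 2.84 and 5.69. Within cluster 1, which held most epithelium-like cells of the cKO-labelled library, the ratios were 1.96 (1.74 to 2.19), 2.07 (1.88 to 2.27), 1.86 (1.61 to 2.15) and 5.77 (4.07 to 8.22). In the cKO-labelled library 1 cell held 260185 of the 1166815 UMIs of cluster 1, and its part in these ratios was not tested. The class log2 ratios of Id1 to Id4 were 1.94, 1.95, 1.45 and 2.08. Their lowest values under 13 other settings, given below, were 0.95, 0.99, 0.40 and 1.47. The summed smooth muscle markers also differed, at 45.4 and 250.2 CPM in the class and 47.7 and 264 CPM in cluster 1. In cluster 1 Myh11 held 16 and 3 (2.96 and 2.57 CPM) of the 258 and 308 UMIs of these markers. The difference in their sum thus lay in other markers of the list. The part of these transcripts in the Id values was not tested. All 7 target genes with 10 CPM in this class were higher there and 4 were past 2-fold, beside 64.0% of all genes higher and 13.6% past 2-fold in that direction. Among the 5 fibroblast-like clusters with at least 20 cells in each library, the Id genes did not share a direction. The cKO-labelled library was lower for Id1 and Id2 in 3 of them, for Id3 in 4 and for Id4 in 1.

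**Figure D4:**
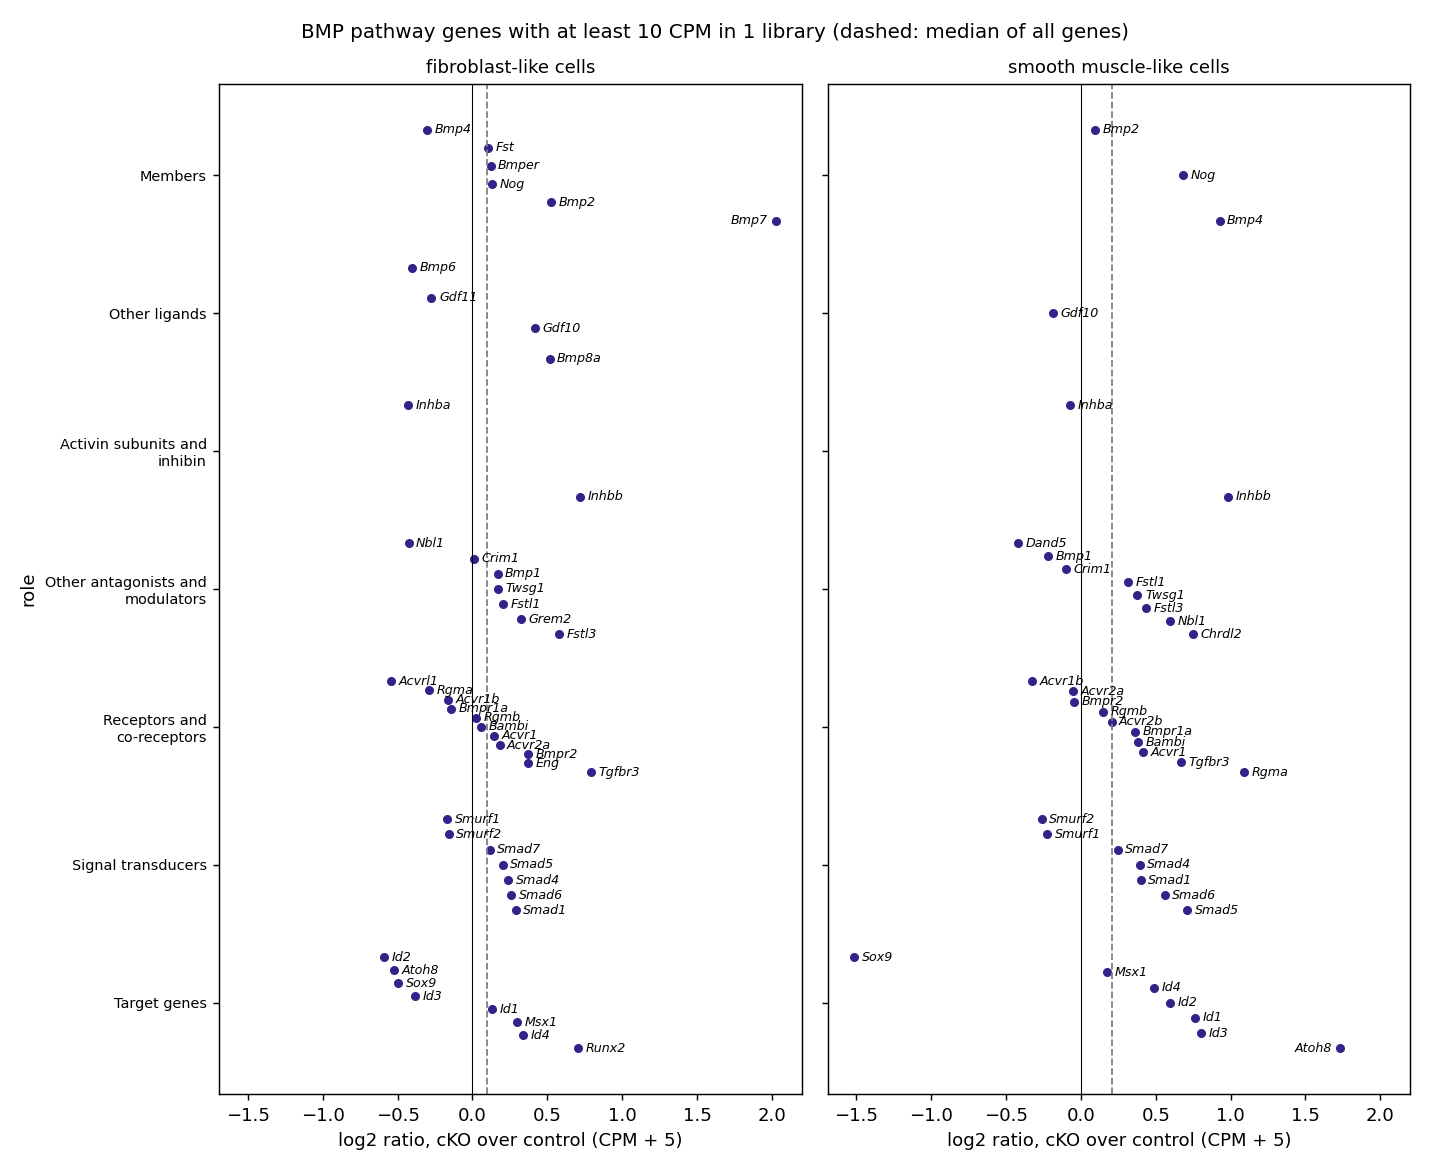
Log2 ratio of cKO-labelled over control-labelled levels on the scale of CPM + 5 (horizontal axes) for the 9 genes and the wider BMP list, grouped by role (vertical axis), in fibroblast-like (left) and smooth muscle-like cells (right). Points are genes with at least 10 CPM in 1 library and the dashed line is the median of all genes (0.10 and 0.21). Bmp7 stands apart in fibroblast-like cells. Atoh8, Rgma and Sox9 lie past 2-fold in smooth muscle-like cells, where 5.76% of 8712 genes do.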

How the data were processed

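Droplet single-cell libraries of whole uterus, 1 per group, were deposited by the authors as unfiltered UMI counts per gene and barcode. These were made with Cell Ranger 6.1.1 on mm10 per the submitters' processing notes, while the file headers name Cell Ranger 4. The kit reads the 3-prime end of transcripts and tissue was digested for 5 hours, per the labels' protocols. Barcodes with 1000 UMIs or more, 500 genes or more and no more than 20% mitochondrial UMIs were kept as cells. Scrublet marked 4 of 7076 cells (0.0565%), so doublet calling did not work here and doublets remain. Clustering of both libraries jointly used scanpy 1.11.5 (2000 variable genes, 30 components, 15 neighbours, Leiden resolution 1.0), with the BMP genes left out of the variable genes. Clusters were named X-like from marker lists, with at least 3 markers each seen in 25% of cells and at 2 times the median cluster. The NK-type cluster 13, with 139 and 297 cells, stayed unnamed. A difference from the study's own classes may come from these rebuilt names.

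UMIs were summed per class and library, scaled to CPM and compared as a log2 ratio after adding 5 CPM, so that changes of genes with few UMIs are understated. Intervals were exact Poisson for levels, exact binomial for shares and exact conditional for ratios (scipy 1.17.1). The ratio was also run on simulated Poisson counts with known changes. These had no spread between mice and no mix of cells, so they check the arithmetic alone. Classes with at least 100 cells in each library were compared. All 9 genes were named. Of the wider list, the 4 highest and 4 lowest ratios in fibroblast-like and smooth muscle-like cells were named, the Id genes were chosen after their values were seen, and likeness took 3 genes per member with at least 100 UMIs. Thinning drew 1000 UMIs from each cell, and empty droplets were barcodes of at most 100 UMIs. The genes, lists and markers were chosen with earlier results of these data known.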

Additional observations from a re-analysis of the deposited data

Results flagged for a closer look

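Bmp4 and Fst were picked out because their counting intervals lay on opposite sides of no change in different classes. No test of the difference between classes was run, as there is a single library per group: it was not tested. For Bmp4 the log2 ratio of cKO-labelled over control-labelled levels was 1.99 in epithelium-like and 0.93 in smooth muscle-like cells, and -0.30 in fibroblast-like cells. For Fst it was 1.88 in epithelium-like and 0.11 in fibroblast-like cells, whereas T or NK cell-like cells stood at -1.79 and the macrophage or monocyte-like class at -0.73. The median of all genes in fibroblast-like cells was 0.10, so Fst lay close to it there.

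Single cells weighed on several of these values. The Fst UMIs of macrophage or monocyte-like cells came from 8 of 315 and 6 of 228 cells, and their median summed fibroblast marker level was 4831 and 5372 CPM against 0 in the Fst-negative cells. Without the highest Scrublet scores the Fst log2 ratio was 1.49 in macrophage or monocyte-like cells, opposite in sign.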

How the results depend on the processing

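The counts past 2-fold, the medians of the wider list and the class ratios of the named genes were recomputed under 13 other settings, of which 3 were chosen after seeing the data: without the highest Scrublet scores, as the mean within clusters, and without clusters under 0.5 of the median depth. The number of the 9 genes past 2-fold in fibroblast-like cells was 1 (Bmp7), and 0 without clusters drawn over 90% from 1 library and as the mean within clusters. In epithelium-like cells it was 2, and 1 without those clusters (Bmp4), as the mean within clusters (Fst) and with cells thinned to 1000 UMIs (Fst), where the Bmp4 log2 ratio was -0.20. In smooth muscle-like cells it was 0 under every setting run. The median of the wider BMP list ran from 0.0085 to 0.26 in fibroblast-like and from 0.16 to 0.43 in smooth muscle-like cells. Of 15 pairs of gene and class with at least 10 CPM, 8 kept their sign under all 13 settings. Among the other 7, the Fst log2 ratio in fibroblast-like cells was -0.01 with median of ratios scaling, and the sign of Fst in T or NK cell-like cells was the opposite at a Leiden resolution of 2.0 (0.32) and without the highest Scrublet scores (1.28). That scaling brought the median of all genes in smooth muscle-like cells from 0.21 to 0, where Bmp4 was at 0.70. The number of all genes past 2-fold in fibroblast-like cells was 209, with 342 for thinned cells, 100 without clusters drawn over 90% from 1 library and 104 as the mean within clusters. In smooth muscle-like cells it was 502, with 959 at a pseudocount of 1 CPM and 1468 for thinned cells, and in epithelium-like cells 1806, with 3066 for thinned cells and 1128 as the mean within clusters. Of 23 pairs of a named wider-list gene and a class, 21 kept their sign; Runx2 in fibroblast-like cells was at -0.01 as the mean within clusters, and Acvr1b in smooth muscle-like cells at 0.20 for thinned cells. Ratios within clusters, likeness and shared detection were not recomputed. The cause of these shifts was not tested. No paired analysis was possible because each group has 1 library. Depth limits Bmp5, Grem1 and Chrdl1, whose counts were below 50 in each library.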
